A study of Homo sapiens with 2 samples.

Results

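The transcripts of 5 mismatch repair genes, MSH6, MSH3, PMS2, PMS1 and MLH3, and of the methyltransferase gene MGMT were followed in A2780CBN and A2780CBNDXL, drug-resistant lines derived from the human ovarian carcinoma line A2780. Every probe carrying one of these 6 names was taken, which gave 11 probes on an array that holds 30238 gene names. A2780CBN was selected in carboplatin up to 22.2 µM. A2780CBNDXL was selected in carboplatin and docetaxel together. Its labels give 8.02 µM for the combination. This is the carboplatin part of the inhibitory concentration measured on the finished line. The docetaxel part was far lower, and selection itself ended at another dose. The comparison for each line was A2780CC, parental cells kept in culture alongside the selection without being selected, so that time in culture was shared. Doses were raised gradually from a low start, a scheme meant to keep a population of cells and not a few clones. Each array was hybridized with RNA of a resistant line in one dye and RNA of A2780CC in the other. For each line the RNA came from 3 isolations mixed before labelling, so each line is 1 sample. That sample was run on 4 arrays. Arrays 1 and 3 had forward labelling and arrays 2 and 4 reverse labelling, with arrays 1 and 2 on slide 1 and arrays 3 and 4 on slide 2. The SD over arrays therefore holds labelling and hybridization error and not the spread between cultures, and no p-value across samples was computed.

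Mismatch repair removes bases that were paired wrongly during replication. MutS proteins find the mismatch and MutL proteins carry the signal to an exonuclease, after which the strand is filled in and sealed. MSH6 serves the complex that reads single mismatches and MSH3 the one that reads larger loops. PMS2 is the main MutL subunit with endonuclease activity, MLH3 acts mostly in meiotic crossing over, and the role of PMS1 is less clear. Mismatch repair proteins also bind DNA carrying platinum adducts, and their loss is known from platinum-tolerant ovarian lines. MGMT acts alone and takes alkyl groups off guanine.

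Ratios are given on the log2 scale with the resistant line over its control, so that 1 is a 2-fold higher signal in the line. Each mean gives both labelling directions the same weight. A gene was called when this mean was at least 2-fold, every one of the 4 arrays had its sign, and 1 channel or both were well above background on each array. All 11 probes were well above background in both channels on all 8 arrays. None of the 6 genes was called in A2780CBN, where 12.6% of 17951 genes tested were. None was called in A2780CBNDXL either, where the share was 16.9% of 17116 genes. With a limit of 1.5-fold, MSH3 was lower and MGMT higher in A2780CBN, which is 2 of 6 beside 27.1% of all genes. In A2780CBNDXL MLH3 was higher, 1 of 6 beside 33.3%. These 3 calls were lost after normexp background correction with loess normalization, where 0 of 6 passed the 1.5-fold limit in each line beside 11% of all genes in A2780CBN and 18.8% in A2780CBNDXL. The means were then -0.58 for MSH3 and 0.57 for MGMT in A2780CBN and 0.57 for MLH3 in A2780CBNDXL, each short of the limit by 0.02 or less on the log2 scale. The median log2 ratio of all genes tested was -0.06 in A2780CBN and 0.04 in A2780CBNDXL.

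**Figure D1:**
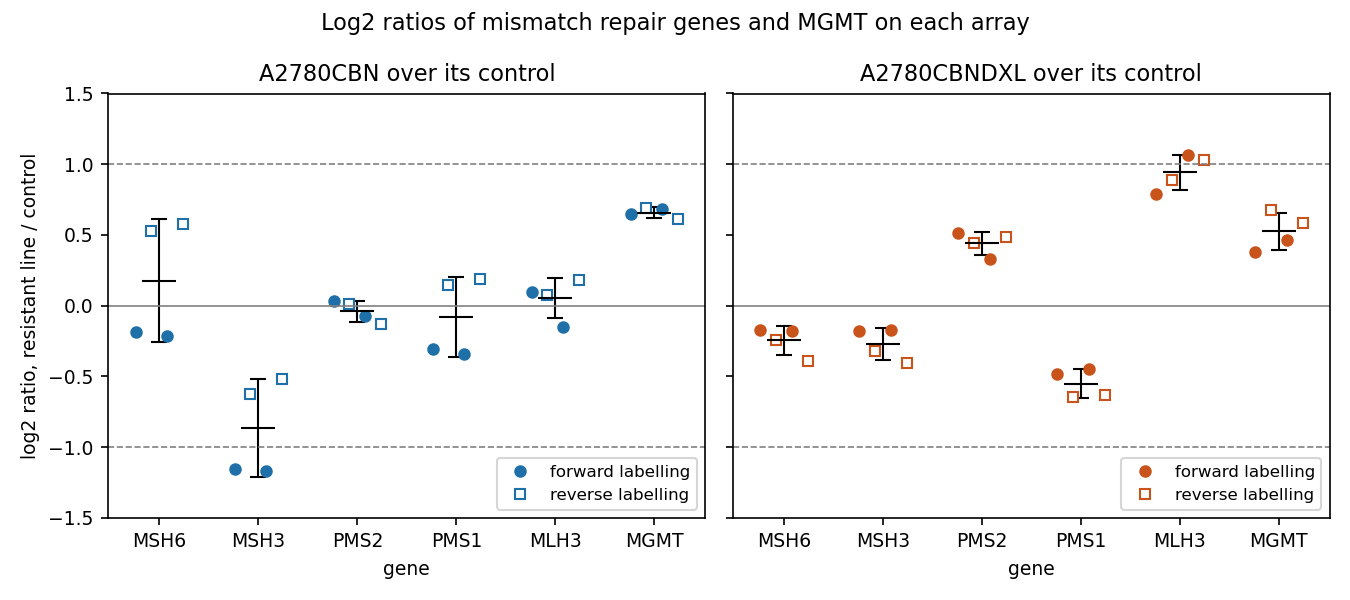
Log2 ratio, line over control, of the 6 genes on each array, with A2780CBN on the left and A2780CBNDXL on the right, circles for forward and open squares for reverse labelling, bars for the mean with the SD of 4 arrays, and dashed lines at 2-fold. MSH3 lies at -0.87 in A2780CBN and MLH3 at 0.94 in A2780CBNDXL, both inside the dashed lines.

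MSH3, the MutS subunit for loops, was measured by 2 probes, which are shown because their ratios lay close together. The first stands for the gene and lies at chr5:80204780-80204839 and the second at chr5:80196444-80196503 (NCBI36, plus strand).
MSH3 probe A_23_P122001: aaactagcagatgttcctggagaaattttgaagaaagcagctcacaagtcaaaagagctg
MSH3 probe A_24_P203479: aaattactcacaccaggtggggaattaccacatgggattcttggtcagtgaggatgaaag
In A2780CBN the first probe gave log2 ratios of -1.15, -0.62, -1.17 and -0.52 on arrays 1 to 4. All 4 arrays had less MSH3 signal in the line than in the control, and the forward arrays lay beyond 2-fold while the reverse arrays did not. The mean was -0.87 ± 0.34 (SD of 4 arrays), a signal 1.82-fold lower in the line. The second probe gave -1.08, -0.49, -1.15 and -0.49, with a mean of -0.80 ± 0.36. In A2780CBNDXL the first probe gave -0.18, -0.32, -0.17 and -0.40, with a mean of -0.27 ± 0.11, and the second a mean of -0.17 ± 0.02. For both probes each of the A2780CBN arrays was below each of the A2780CBNDXL arrays. The labelling directions differed by -0.59 for the first probe in A2780CBN, forward minus reverse, and a difference above 0.5 in size was found for 34.5% of all genes in that line. By slide the mean was -0.89 on slide 1 and -0.84 on slide 2. After normexp correction the MSH3 means lay closer together, at -0.58 in A2780CBN and -0.31 in A2780CBNDXL for the first probe and -0.55 and -0.21 for the second.

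MSH6, the MutS subunit for single mismatches, has 1 probe, at chr2:47887423-47887482 (NCBI36, plus strand). In A2780CBN its log2 ratios were -0.19, 0.53, -0.22 and 0.58 on arrays 1 to 4. The sign followed the dye and not the slide, with both forward arrays below 0 and both reverse arrays above it, and the mean of 0.18 ± 0.44 has no direction beyond this error. A sign that turned with the labelling direction was found for 30.5% of genes in A2780CBN and 23.6% in A2780CBNDXL. In A2780CBNDXL the ratios were -0.17, -0.24, -0.18 and -0.39. These had 1 sign, with a mean of -0.24 ± 0.10.

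Among the MutL genes, MLH3 showed the largest ratio of the 6 genes in A2780CBNDXL. Its probe is given with that of PMS1, since both cover a longer stretch of the genome than their 60 bases, as a probe across an exon junction does. The MLH3 probe lies at chr14:74559344-74567029 on the minus strand and the PMS1 probe at chr2:190440855-190446480 on the plus strand (NCBI36).
MLH3 probe A_24_P61520: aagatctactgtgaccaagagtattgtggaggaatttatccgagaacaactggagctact
PMS1 probe A_23_P40059: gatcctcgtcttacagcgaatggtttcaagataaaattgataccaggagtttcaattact
In A2780CBNDXL the MLH3 log2 ratios were 0.79, 0.89, 1.06 and 1.03 on arrays 1 to 4. All were above 0, and both arrays of slide 2 were beyond 2-fold while both of slide 1 were not. The mean was 0.94 ± 0.13 (SD of 4 arrays), which is 1.92-fold. On slide 2 alone the mean was 1.04 and MLH3 passed the 2-fold rule, as it did without array 1, where the mean was 1.01. Of all genes 17.4% were called on slide 2 alone and 17.3% without array 1. After normexp correction it was 0.57. In A2780CBN the ratios were 0.10, 0.08, -0.15 and 0.18, with a mean of 0.05 ± 0.14. With these signals MLH3 did not depart from its control there beyond the array error. With background-subtracted signals the A2780CBN mean was 0.23. The SD of 0.14 belongs to the processed signals and none is given for the background-subtracted ones, so this mean is not set against an array error.

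PMS1, a MutL homologue whose part in repair is minor, gave log2 ratios of -0.31, 0.14, -0.34 and 0.19 in A2780CBN. As with MSH6, the sign turned with the dye, and the mean was -0.08 ± 0.28. In A2780CBNDXL the ratios were -0.49, -0.64, -0.45 and -0.63. PMS1 was below its control on all 4 arrays of that line, with a mean of -0.55 ± 0.10 that does not reach 1.5-fold.

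PMS2, the endonuclease subunit, has 5 probes, and they did not behave alike. PMS2 belongs to a family of near copies on chromosome 7, which the array lists under the names PMS2L and PMS2CL and which current annotation mostly treats as pseudogenes. The probes are shown beside the closest probes of PMS2L11 and PMS2L2, with the longest stretch of identical bases shared with a PMS2-like probe in capitals where it is at least 12 bases.
PMS2 probe A_24_P195476: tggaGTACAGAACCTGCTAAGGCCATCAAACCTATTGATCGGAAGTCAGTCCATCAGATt
PMS2 probe A_24_P410859: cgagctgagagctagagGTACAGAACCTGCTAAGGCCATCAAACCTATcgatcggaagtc
PMS2L11 probe A_24_P6911: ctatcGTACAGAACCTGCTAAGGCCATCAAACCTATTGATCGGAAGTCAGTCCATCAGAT
PMS2 probe A_24_P374586: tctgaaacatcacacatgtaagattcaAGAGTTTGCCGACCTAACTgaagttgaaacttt
PMS2L2 probe A_32_P10272: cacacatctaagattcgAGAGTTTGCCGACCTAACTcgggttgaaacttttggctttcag
PMS2 probe A_32_P140706: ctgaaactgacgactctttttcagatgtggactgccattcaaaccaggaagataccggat
PMS2 probe A_23_P93792: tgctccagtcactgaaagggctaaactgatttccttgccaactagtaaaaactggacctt
On NCBI36 the PMS2 probes lie on the minus strand of chromosome 7. In the order of the gene, A_24_P195476 is at chr7:6012134-6015158, A_24_P374586 at chr7:6009889-6009948, A_32_P140706 at chr7:5993244-5993303 and A_23_P93792 at chr7:5983857-5984754. The files place A_24_P410859 at chr7:5979381-5979423, a stretch of 43 bases, although 31 of its 60 bases in a row are also in A_24_P195476. The PMS2L11 probe is at chr7:76473023-76479186 and the PMS2L2 probe at chr7:72148176-72148235, both on the plus strand. A_24_P195476 shares 55 bases in a row with the PMS2L11 probe, and A_24_P374586 shares 19 with the PMS2L2 probe. The files list transcripts of PMS2P5 for A_24_P195476, of PMS2P1 and PMS2P4 for A_24_P410859, and of PMS2P3 for A_24_P374586, by their current RefSeq symbols. For A_32_P140706 and A_23_P93792 they list PMS2CL, a copy of the far end of the gene.

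In A2780CBNDXL the probe that stands for PMS2, A_24_P195476, gave log2 ratios of 0.51, 0.45, 0.33 and 0.48 on arrays 1 to 4. Each array was above 0, with a mean of 0.44 ± 0.08. The other probes that share a run with PMS2-like probes gave 0.42 ± 0.06 for A_24_P410859 and 0.39 ± 0.11 for A_24_P374586. The remaining probes had lower means, at 0.08 ± 0.20 for A_32_P140706 and -0.14 ± 0.11 for A_23_P93792. A_32_P140706 gave -0.12, 0.17, -0.05 and 0.32 on arrays 1 to 4, so its sign turned with the dye. Its array 4 was above array 1 of A_24_P374586, at 0.23. A_23_P93792 was below 0 on all 4 arrays, where the 3 higher probes were above 0 on all 4. The PMS2L and PMS2CL genes had 10 probes, all above 0 in A2780CBNDXL, between 0.10 and 0.55 with a median of 0.40. The lowest of them was the PMS2CL probe, at 0.10 ± 0.08, and at 0.00 after normexp correction, where the PMS2L probes stayed above 0. The PMS2L11 probe printed above gave 0.41 ± 0.01 and the PMS2L2 probe 0.42 ± 0.14. Within PMS2 the probes with a shared run in capitals thus had the values of the PMS2L genes, and those listed with PMS2CL had lower ones. Among the probes set out in the order of the gene, A_32_P140706 and A_23_P93792 also came last. Shared run and position cannot be told apart here. What share of a signal comes from PMS2 itself cannot be told from these probes, and a mean over all 5 probes is 0.24. The same ordering of the 5 PMS2 probes into a higher 3 and a lower pair was found with normexp correction, where they gave 0.36, 0.29, 0.25, 0.04 and -0.16 in the order printed, and with background-subtracted signals.

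In A2780CBN the 5 PMS2 probes lay between -0.14 and 0.02. The representative probe gave 0.03, 0.01, -0.07 and -0.13 on arrays 1 to 4, with a mean of -0.04 ± 0.07. Of the PMS2-like probes 5 of 10 were above 0, with a median of -0.02. A single PMS2L1 probe, A_32_P57728, stood apart at 0.54 ± 0.07, and it gave 0.55 ± 0.06 in A2780CBNDXL. The other PMS2L1 probe gave 0.00 ± 0.18 and 0.40 ± 0.16. Of 6 PMS2-like genes 0 met the 2-fold rule in either line, beside 12.6% of all genes in A2780CBN and 16.9% in A2780CBNDXL. The count was also 0 with normexp correction, where 604 and 1172 of all genes were called, and with background-subtracted signals, where 2186 and 2731 were.

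**Figure D2:**
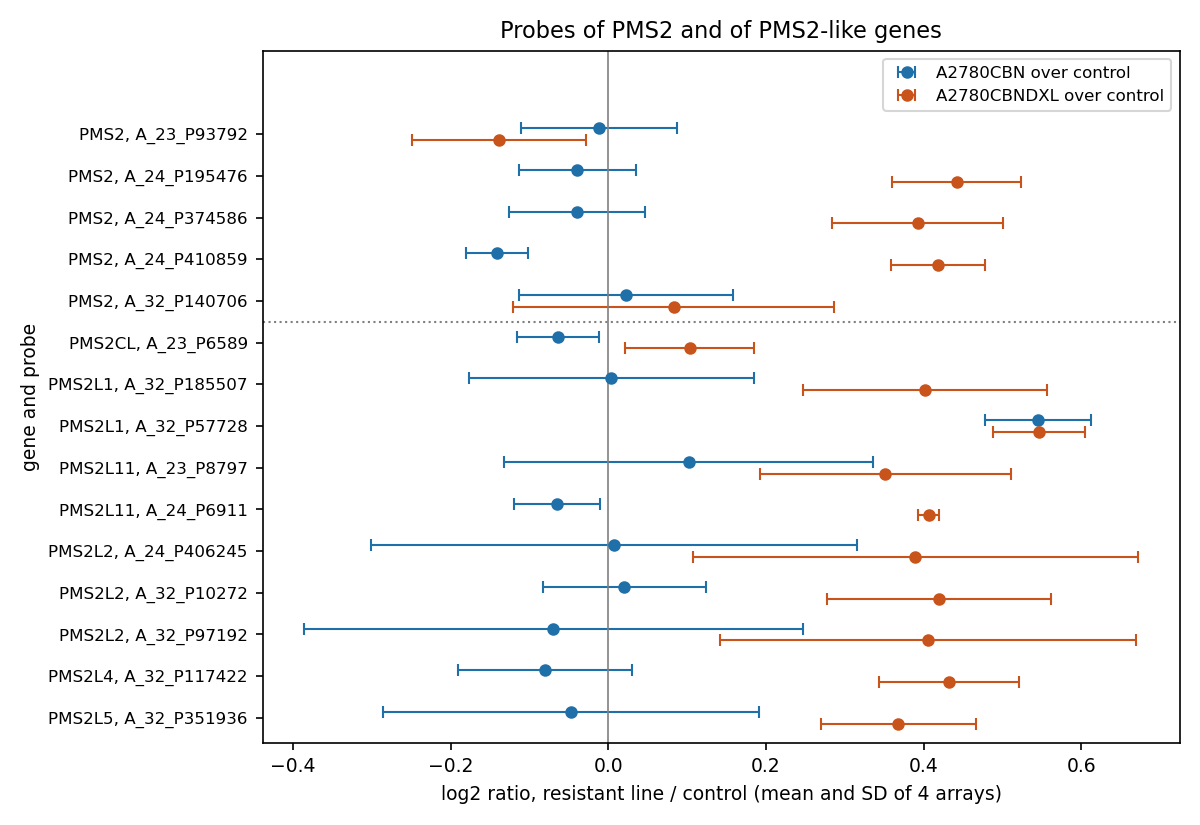
Log2 ratio, line over control, for each probe of PMS2, above the dotted line, and of PMS2-like genes, below it, as mean and SD of 4 arrays in each line. In A2780CBNDXL the PMS2 probes at 0.39 to 0.44 sit beside the PMS2L probes, while A_32_P140706 and A_23_P93792 lie at 0.08 and -0.14.

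MGMT, which repairs alkylated guanine and is outside mismatch repair, has 1 probe. It lies at chr10:131396272-131447489 on the plus strand (NCBI36), a span of 51218 bases for a probe of 60.
MGMT probe A_23_P104323: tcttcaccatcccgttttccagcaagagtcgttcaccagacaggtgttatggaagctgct
In A2780CBN the log2 ratios were 0.65, 0.69, 0.69 and 0.61 on arrays 1 to 4. These are the most even values among the 6 genes in that line, and neither dye nor slide set them apart. The mean was 0.66 ± 0.04, a signal 1.58-fold that of the control. In A2780CBNDXL the ratios were 0.38, 0.68, 0.47 and 0.58, with a mean of 0.53 ± 0.13 that does not reach 1.5-fold. The ranges of the lines overlap. After normexp correction MGMT was at 0.57 in A2780CBN and 0.41 in A2780CBNDXL, still above 0 in both.

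Both channels were then set side by side over all arrays, after scaling between arrays by the Aquantile method, to see whether line or control set a ratio. For MSH3 the scaled log2 signal was 9.56 ± 0.08 in A2780CBN and 10.42 ± 0.31 in its control. It was 10.46 ± 0.10 in A2780CBNDXL and 10.72 ± 0.13 in the control there. The A2780CBN values of this probe, from 9.49 to 9.67, were below every value of its other channels, and these other channels overlap in part. A2780CBNDXL exceeded A2780CBN by 0.90 ± 0.12 on arrays of the same slide and labelling, on 4 of 4 arrays, while its control exceeded the other control by 0.30 ± 0.39, on 3 of 4. The second MSH3 probe had the same lowest channel on average, 9.46 ± 0.20 in A2780CBN, but without a gap, since array 2 of A2780CBN at 9.73 was above array 1 of A2780CBNDXL at 9.61. For that probe the lines differed by 0.55 ± 0.28, on 4 of 4 arrays, and the controls by -0.08 ± 0.47.

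For MLH3 the lowest levels were those of the A2780CBN control, 7.55 ± 0.17, and of A2780CBN, 7.60 ± 0.16, which do not differ beyond their spread. The control of A2780CBNDXL was at 8.23 ± 0.24 and the line at 9.18 ± 0.12. MLH3 was thus also higher in the control of A2780CBNDXL than in the control of A2780CBN, by 0.68 ± 0.17 and on 4 of 4 arrays. On average MSH6, MSH3, PMS1 and MGMT were higher in that control too, by 0.31, 0.30, 0.53 and 0.27. PMS2 probe A_24_P195476 was not, at -0.08. Between the lines the MLH3 difference was 1.58 ± 0.06. Of 16131 genes compared in this way, 14.1% differed by at least 2-fold with 1 sign on all arrays between the lines, and 3.84% between the controls. MLH3 passed this limit between the lines and not between the controls. Over the genes compared the median size of the difference was 0.35 between the lines and 0.23 between the controls. Both controls carry the name A2780CC, the methods describe a separate control culture for each line, and whether the RNA was the same is not settled here. Differences between the controls were not tested.

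PMS1 was highest in the control of A2780CBNDXL, at 11.28 ± 0.16, and the other channels lay close together. These were 10.75 ± 0.18 in the A2780CBN control, 10.73 ± 0.15 in A2780CBNDXL and 10.67 ± 0.11 in A2780CBN. The low PMS1 ratio of A2780CBNDXL thus came with a control 0.53 ± 0.27 above the other control, while the lines differed by 0.06 ± 0.20. MGMT was at 11.66 ± 0.07 in A2780CBN and 11.80 ± 0.13 in A2780CBNDXL, above both controls, which were at 11.00 ± 0.05 and 11.27 ± 0.23. For PMS2 probe A_24_P195476, which shares 55 bases with the PMS2L11 probe, A2780CBNDXL was highest at 10.56 ± 0.24, and the other channels ranged from 10.12 to 10.19. PMS2 probe A_23_P93792 was highest in the control of A2780CBNDXL instead, at 9.93 ± 0.32 beside 9.79 ± 0.32 in the line. For A_32_P140706 these were 9.57 ± 0.42 and 9.65 ± 0.24, so no channel order of PMS2 holds for all its probes. MSH6 levels ranged from 14.97 ± 0.31 in the A2780CBN control to 15.28 ± 0.10 in the control of A2780CBNDXL, and no channel of MSH6 stood apart from all others.

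**Figure D3:**
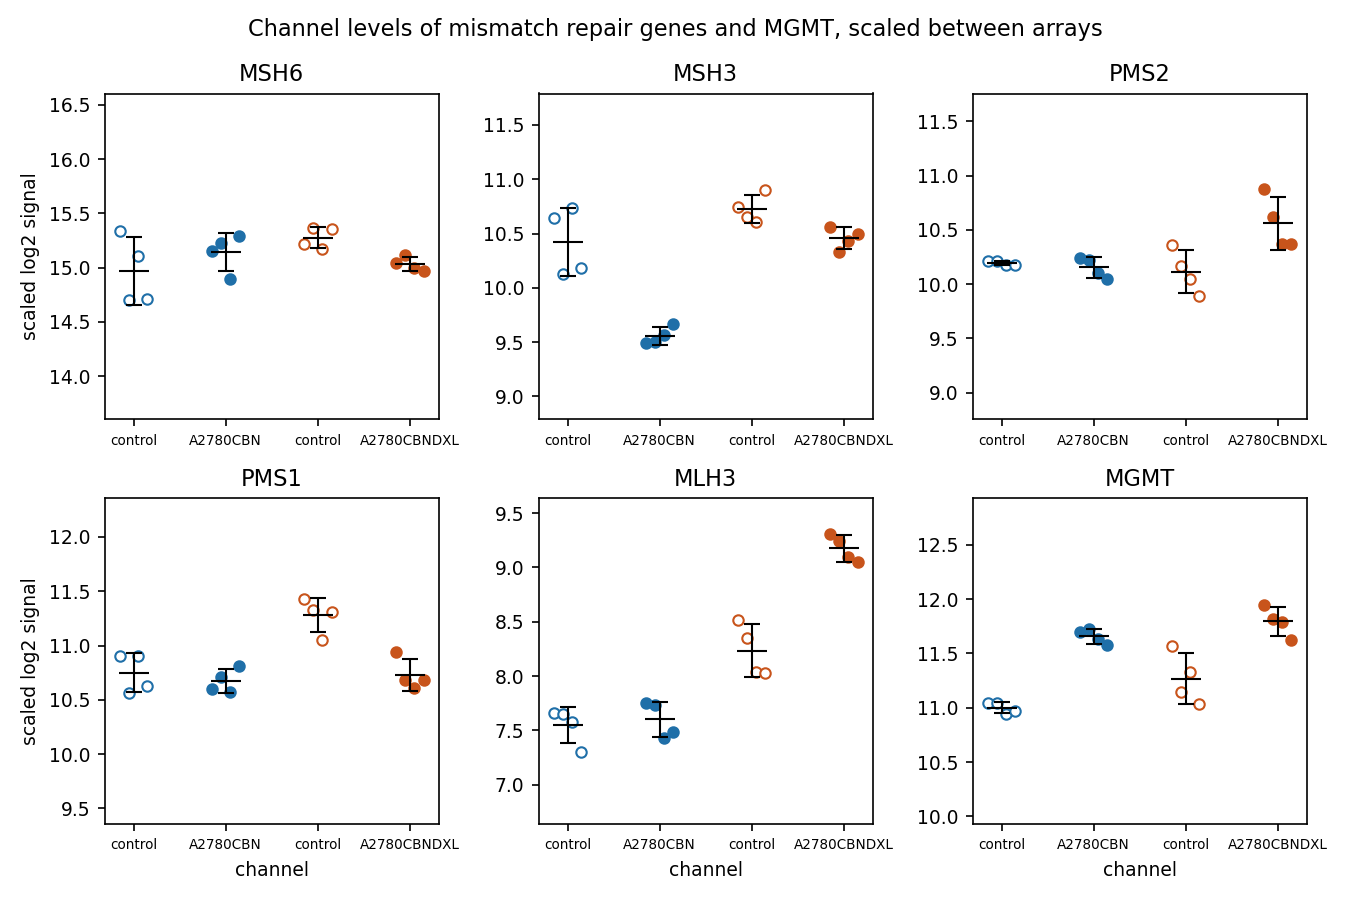
Log2 signal of the probe that stands for each gene in each channel, scaled between arrays, with 4 arrays per channel, the mean and the SD. Open points are controls and filled points resistant lines, blue for the A2780CBN arrays and orange for those of A2780CBNDXL; MSH3 is lowest in A2780CBN at 9.56 and MLH3 highest in A2780CBNDXL at 9.18.

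The proteins that act after the mismatch is found were taken as a list of 19 genes for excision and resynthesis. In A2780CBN 18 of them were tested, 0 were called higher and 1 lower, with a median log2 ratio of -0.25 beside -0.06 for all genes. A share of 12.6% of all genes was called in that line. The gene called lower was RPA4, a variant of the single-strand binding subunit RPA2, at -1.61, -1.24, -1.15 and -0.47 on arrays 1 to 4, with a mean of -1.12 ± 0.48. Its call was lost under normexp correction and under background-subtracted signals. In A2780CBNDXL 14 genes were tested, 1 was called higher and 0 lower, beside 16.9% of all genes called, with a median of -0.16 beside 0.04. POLD4, the small subunit of DNA polymerase delta, was that gene. It gave 1.14, 1.18, 1.11 and 1.17, with a mean of 1.15 ± 0.03, and kept its call under both other treatments of the signals. In A2780CBN POLD4 was at 0.54 ± 0.04. The exonuclease EXO1 was not called, with -0.81 ± 0.12 in A2780CBN and -0.53 ± 0.07 in A2780CBNDXL. The sliding clamp PCNA was at 0.43 ± 0.15 and 0.14 ± 0.21.

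The genes that act on alkylated bases beside MGMT were not called in either line, 0 of 4 beside 12.6% of all genes in A2780CBN and 16.9% in A2780CBNDXL. They were ALKBH1, ALKBH2 and ALKBH3, dioxygenase genes, and MPG, a glycosylase gene, with a median of -0.11 in A2780CBN and -0.10 in A2780CBNDXL, and of -0.03 and -0.09 after normexp correction. ALKBH2 was at -0.42 ± 0.09 and -0.23 ± 0.08, and ALKBH3 at 0.14 ± 0.10 and 0.01 ± 0.09. ALKBH1 was at -0.37 ± 0.59 and -0.20 ± 0.05, and MPG at 0.23 ± 0.36 and 0.13 ± 0.08. The glycosylases that remove deaminated bases, TDG, UNG, MBD4 and SMUG1, were not called either, again 0 of 4 beside these shares. Their median was -0.30 in both lines, beside -0.06 and 0.04 for all genes, and -0.12 in A2780CBN and -0.28 in A2780CBNDXL after normexp correction. TDG was the lowest of them, at -0.81 ± 0.55 in A2780CBN and -0.71 ± 0.10 in A2780CBNDXL. MBD4 was at -0.23 ± 0.07 and -0.49 ± 0.07, UNG at -0.37 ± 0.36 and -0.12 ± 0.53, and SMUG1 at 0.05 ± 0.27 and -0.06 ± 0.09. MSH4, a MutS homologue of meiosis, was not well above background in the line on any array. Its control was above background on 1 of 4 arrays of A2780CBNDXL, and no fold is given. MSH5 was not analysed here.

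Transcripts of repair genes vary with the rate of division, so 17 proliferation genes were measured beside them. None was called in A2780CBN, beside 12.6% of all genes, with a median of -0.47 over 16 tested beside -0.06. None was called in A2780CBNDXL, beside 16.9%, with a median of -0.30 over 16 tested beside 0.04. In A2780CBN 13 of the 16 were below 0, beside 9879 of all 17951 genes, and TOP2A, RRM2 and MKI67 were above it at 0.96 ± 0.12, 0.48 ± 0.25 and 0.65 ± 0.51. In A2780CBNDXL 12 of the 16 were below 0, beside 8077 of all 17116 genes. The part of proliferation in the values of the repair genes was not tested.

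**Figure D4:**
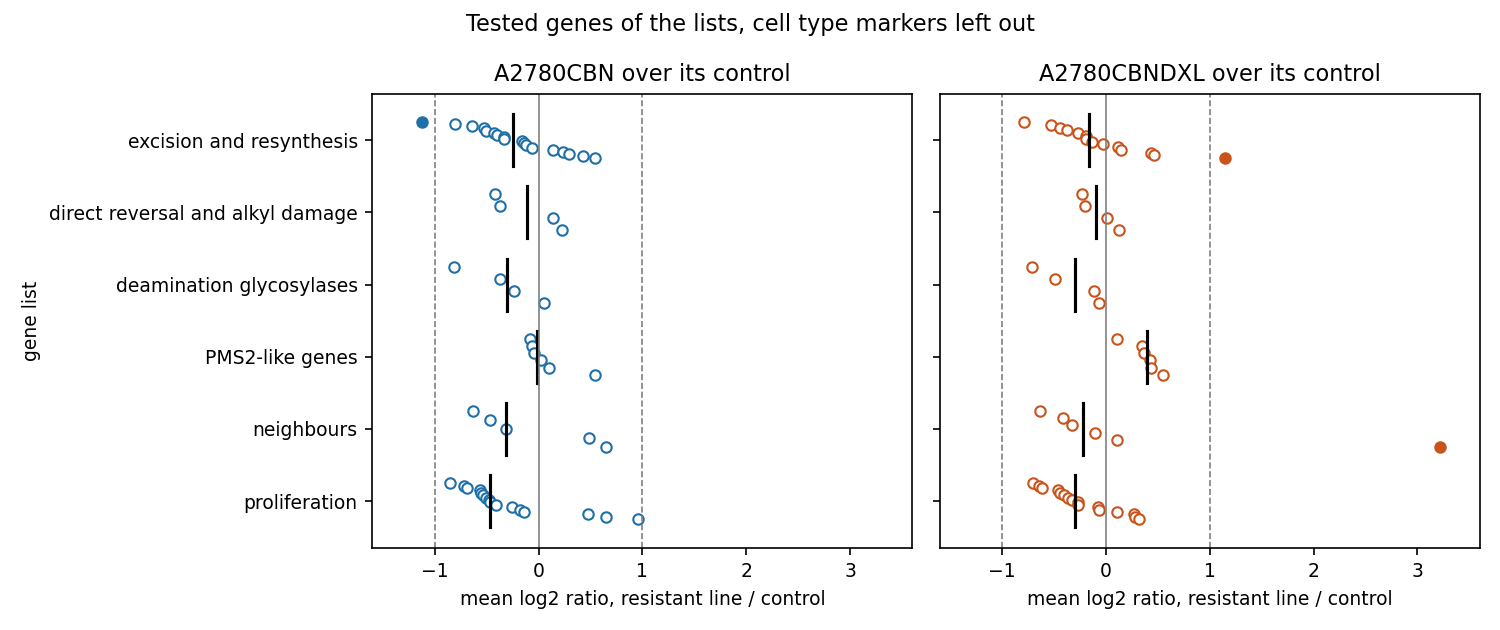
Mean log2 ratio, line over control, for each tested gene of the lists other than the cell type markers, A2780CBN on the left and A2780CBNDXL on the right, with filled points for called genes, open points for others, black bars for medians and dashed lines at 2-fold. RPA4 in A2780CBN, at -1.12, and POLD4 and EBF3 in A2780CBNDXL, at 1.15 and 3.22, are the filled points.

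PMS1 and PMS2 start close to a neighbour. PMS1 and ORMDL1, a regulator of sphingolipid synthesis, are read from opposite strands with starts 111 bases apart, and PMS2 and AIMP2, a scaffold of the tRNA synthetase complex, with starts 166 bases apart. All 6 genes matched a start region in RefSeq (GRCh38.p14). The regions of PMS1 and PMS2 are printed because the data give both genes of each pair. Each runs from 250 bases before a start to 50 after it, with capitals for the bases that also fall in the region of the neighbour, 210 for PMS1 and 265 for PMS2. The PMS1 region is chr2:189784200-189784499 on the plus strand and the PMS2 region chr7:6009057-6009356 on the minus strand.
PMS1 start region: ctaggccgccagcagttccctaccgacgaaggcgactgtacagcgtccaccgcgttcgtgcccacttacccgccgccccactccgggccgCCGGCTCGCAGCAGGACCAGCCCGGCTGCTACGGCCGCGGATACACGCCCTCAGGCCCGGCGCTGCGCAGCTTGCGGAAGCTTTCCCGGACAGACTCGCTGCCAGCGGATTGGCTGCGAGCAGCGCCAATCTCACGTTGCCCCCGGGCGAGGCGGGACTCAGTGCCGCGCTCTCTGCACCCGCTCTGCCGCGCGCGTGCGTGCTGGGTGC
PMS2 start region: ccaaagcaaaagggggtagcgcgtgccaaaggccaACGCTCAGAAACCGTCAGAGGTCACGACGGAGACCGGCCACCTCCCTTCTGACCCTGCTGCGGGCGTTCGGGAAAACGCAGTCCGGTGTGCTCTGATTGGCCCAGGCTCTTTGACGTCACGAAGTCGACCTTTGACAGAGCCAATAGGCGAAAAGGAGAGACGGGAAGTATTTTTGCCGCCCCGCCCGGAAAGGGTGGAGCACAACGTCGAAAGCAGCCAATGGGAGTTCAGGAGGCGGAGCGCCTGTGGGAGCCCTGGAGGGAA
The letters GGGCGG, searched on both strands, occur 1 time in the PMS1 region and 2 times in that of PMS2, and in 45.0% of 35116 such regions. The letters CCAAT occur 2 times and 3 times, and in 34.6% of regions. The PMS1 region holds 40 CG pairs and the PMS2 region 24, beside a median of 14. These matches describe the letters only.

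ORMDL1 was at -0.32 ± 0.06 (log2 ratio) in A2780CBN and -0.42 ± 0.19 in A2780CBNDXL, where PMS1 was at -0.08 and -0.55. AIMP2 was at -0.63 ± 0.26 and -0.10 ± 0.09, where PMS2 was at -0.04 and 0.44. In A2780CBN AIMP2 was below PMS2 by more than the array error. In A2780CBNDXL this held for the PMS2 probes with a shared run in capitals, while A_23_P93792 and A_32_P140706, at -0.14 and 0.08, did not lie apart from AIMP2. PMS1 and ORMDL1 were both below their controls on all 4 arrays of A2780CBNDXL, where 47.2% of all genes had a mean below 0. In A2780CBN ORMDL1 was below its control on all 4 arrays too, while the sign of PMS1 turned with the dye. ACYP1, taken as a neighbour of MLH3, was at -0.47 ± 0.20 and -0.64 ± 0.20, on the other side of 0 from MLH3 in A2780CBNDXL. FBXO11, taken as a neighbour of MSH6, was at 0.49 ± 0.07 and -0.33 ± 0.51. For MGMT the genes taken were EBF3, a transcription factor gene, and MKI67, and distances between starts were not measured for these 4 genes. EBF3 was called higher in A2780CBNDXL, with ratios of 3.85, 2.83, 3.14 and 3.06 and a mean of 3.22 ± 0.44. Its control was above background on 2 of 4 arrays, so the size of the ratio is not settled, and the call was lost under normexp correction and kept with background-subtracted signals, at 3.92. In A2780CBN EBF3 was not well above background in either channel. MKI67 was at 0.65 ± 0.51 and 0.10 ± 0.19.

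The cells were checked against markers of their type. Of 9 carcinoma markers measured, KRT8, KRT18, PAX8, EPCAM and VIM were well above background on all 8 arrays in at least 1 channel, KRT19 on 6 of 8 in each channel, and WT1, MUC16 and CDH1 on none. The summed processed signal of these markers was 260527 in A2780CBN and 129603 in its control, and 250834 in A2780CBNDXL and 202622 in its control. VIM alone gave 256624, 127329, 246961 and 200045 in the same order, so these sums describe VIM and not the set. The VIM log2 ratio in A2780CBN was 1.66 on forward and 0.51 on reverse arrays. KRT18, EPCAM and VIM were called higher in A2780CBN, at 1.05 ± 0.16, 2.07 ± 0.30 and 1.08 ± 0.67, and EPCAM in A2780CBNDXL, at 1.67 ± 0.24. This is 3 of 6 tested beside 12.6% of all genes and 1 of 5 beside 16.9%. In A2780CBNDXL the EPCAM control was well above background on 3 of 4 arrays, so the size of that ratio is not settled. KRT8 and KRT19 were below 0 on all 4 arrays of A2780CBN, at -0.37 ± 0.17 and -0.48 ± 0.51, and were not called. After normexp correction VIM in A2780CBN was the only carcinoma marker still called, while with background-subtracted signals all of these calls were kept. Of the 3 leukocyte markers PTPRC was never above background. CD3E and CD68 were above it and were not called, but CD68 in A2780CBN was called with background-subtracted signals, at 1.00. The summed leukocyte signal was 237 in A2780CBN, 169 in its control, 163 in A2780CBNDXL and 172 in its control, most of it from CD68. The endothelial markers PECAM1 and CDH5 were never above background, with sums of 13.9, 12.2, 19.2 and 13.3 in the same order, most of it from CDH5. The fibroblast markers DCN and COL1A1 had a summed signal of 661 in A2780CBN and 255 in its control, and of 6829 in A2780CBNDXL and 738 in its control. By gene the signal was 374 and 189 for COL1A1 and 287 and 65.5 for DCN in A2780CBN and its control, and 1070 and 265 for COL1A1 and 5760 and 473 for DCN in A2780CBNDXL and its control. DCN was called higher in both lines, at 2.21 ± 0.46 and 3.62 ± 0.29, and lost the call in A2780CBN under normexp correction but not with background-subtracted signals. COL1A1 was called higher in A2780CBNDXL, at 2.04 ± 0.20, and was at 0.99 ± 0.08 in A2780CBN, where it was called with background-subtracted signals, at 1.12. Their part in the values of the repair genes was not tested.

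The genes most like MSH3 and MGMT were sought among 11570 named genes well above background in 1 channel on all 8 arrays, by the root mean square difference of log2 ratios. With the processed signals MSH3 had the largest mean size of ratio over both lines among the mismatch repair genes, 0.57. With background-subtracted signals MLH3, at 0.23 in A2780CBN and 0.95 in A2780CBNDXL, was slightly ahead of MSH3, at -0.81 and -0.35. The closest to MSH3 were TCFL5, C11orf83 and DGKH, at 0.08, 0.09 and 0.09. For MGMT they were ZSWIM3, HINT2 and C14orf133, at 0.08, 0.09 and 0.10. TCFL5 had means of -0.90 in A2780CBN and -0.30 in A2780CBNDXL, close to the -0.87 and -0.27 of MSH3. ZSWIM3 had 0.65 and 0.56, beside 0.66 and 0.53 for MGMT. These genes were picked by this measure on the same ratios, so the closeness of their means follows from the choice.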

How the data were processed

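Gene expression was measured with 8 two-colour Agilent whole human genome arrays, 4 for each of 2 resistant lines. The authors deposited the spot tables written by Agilent Feature Extraction, with release 10.7.1.1 for the first slide and 10.7.3.1 for the second. The deposited processed intensity of each channel had been background-subtracted, detrended and dye-normalized within its array by the authors. The raw and background-subtracted intensity columns served for alternatives. The share of spots well above background ranged from 59.8% to 67.5% by array and channel, no spot was saturated, and the number of arrays limits the precision.

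The resistant line carried Cy5 on forward arrays. For reverse arrays the dye entries repeat the forward ones, against the array name and the methods, and these arrays were turned over. Forward and reverse ratios then correlated across probes at 0.58 to 0.61 in A2780CBN and 0.73 to 0.74 in A2780CBNDXL. Control spots and outlier spots were left out and spots of a probe averaged. For each gene the probe of highest mean log2 signal over all arrays was used. Gene names are those of the files. The mean with slide as a block equals the mean given, since both slides hold both directions of each line.

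Named genes are the 6 members, genes of the fixed lists that were called or belong to a list of at most 8, and the 3 genes most like MSH3 and MGMT; PCNA, EXO1 and genes named beside a count were added after their values were seen. The members and lists were chosen with earlier results of these data known. Alternatives were normexp with an offset of 50 and loess, each array left out, each slide alone, median-centred background-subtracted signals, the mean over probes, other filters on dim probes, limits of 1.5-fold and 3-fold, limma, and the 3-way ANOVA of the methods. The 1.5-fold limit combined with either treatment of the signals was chosen after seeing the data. The steps were tested on simulated data. Versions were matplotlib 3.10.9, pandas 2.3.3, numpy 2.4.6 and scipy 1.17.1 on Python 3.11.15, and limma 3.58.1 on R 4.3.3. MSH5, JTV1 and TACSTD1 and the A2780DXL line were not analysed here, with AIMP2 and EPCAM standing in for JTV1 and TACSTD1. A gene first chosen as a neighbour was taken out of the list and is not reported here.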

Additional observations from a re-analysis of the deposited data

Results flagged for a closer look

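Among the 62 members and list genes tested in both lines, 5 had all 4 arrays of A2780CBN on one side of 0 and all 4 arrays of A2780CBNDXL on the other. That is 8.06%, beside 14.2% of all 16131 genes tested in both lines. The values are differences of mean log2 ratio, A2780CBNDXL minus A2780CBN, and these differences were not tested. PMS2CL, a PMS2-like gene, differed by 0.17, from -0.06 ± 0.05 to 0.10 ± 0.08, and its mean in A2780CBN was 0.02 after normexp correction and 0.01 with background-subtracted signals. RFC1, the large subunit of the clamp loader, differed by -0.40, from 0.13 ± 0.06 to -0.27 ± 0.16. RRM2, a ribonucleotide reductase subunit, differed by -1.12, from 0.48 ± 0.25 to -0.64 ± 0.11. TOP2A, a topoisomerase of dividing cells, differed by -1.28, from 0.96 ± 0.12 to -0.33 ± 0.11. KRT8, a keratin of simple epithelia, differed by 0.55, from -0.37 ± 0.17 to 0.18 ± 0.07. None of the 6 members was among them.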

How the results depend on the processing

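The count of changed genes in A2780CBN was 2253, and 604 with normexp and loess, 4860 at 1.5-fold, 1121 at 3-fold and 4728 at 1.5-fold with background-subtracted signals. In A2780CBNDXL it was 2893, and 1172, 5699, 1467 and 5514 under the same settings. With 1 array left out the counts were 2283 to 2330 and 2899 to 3189. The members called were 0 in each line, and 2 in A2780CBN and 1 in A2780CBNDXL at 1.5-fold, also with background-subtracted signals. In A2780CBNDXL 1 member was called on slide 2 alone, beside 3258 of all genes, and 0 to 1 with 1 array left out. In both cases this was MLH3, without array 1 in the latter, beside 3189 of all genes. In A2780CBN 0 members were called with any 1 array left out. The combinations of 1.5-fold with other signals were chosen after seeing the data. limma, the ANOVA and both other filters on dim probes could add no member, since they keep the 2-fold limit and the same means. The mean over probes can alter only MSH3 and PMS2 and called neither. Leaving out 1 array or taking 1 slide moves a mean by less than 1 SD by construction. Under the other alternatives 4 member ratios moved by at least 1 SD of the arrays, taken from the processed signals. These were MGMT in A2780CBN and MLH3 in A2780CBNDXL with normexp, at 0.57 each, MLH3 in A2780CBN with background-subtracted signals, at 0.23, and PMS2 in A2780CBNDXL over all probes, at 0.24. MSH3 in A2780CBN went from -0.87 to -0.58 with normexp and is not counted, since its SD was 0.34. MGMT there is counted with a move from 0.66, since its SD was 0.04. The sign of the near-zero ratios of PMS2 and MLH3 in A2780CBN turned under 1 alternative each. The cause of these moves was not tested. No paired analysis was possible because each line is 1 sample. The median green-channel signal of an array was 2.64 to 3.52 times its local background. How far this limits the precision of dim probes was not tested.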
